A study of Mus musculus with 12 samples.

Results

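The genes described here encode subunits and assembly factors of the mitochondrial respiratory chain and ATP synthase. They were chosen by symbol: Nduf (complex I), Sdha to Sdhd (complex II), Uqcr (complex III), Cox with a digit (complex IV) and Atp5 (complex V). The probe annotation gave 36 probes for 35 such genes, out of 5723 genes with a probe of 1 symbol. Of these, 21 belong to complex I, 1 to complex II, 2 to complex III, 7 to complex IV and 4 to complex V. The symbol rule itself uses no measured value. Most subunits of the chain have no probe in this set. A value on all 10 usable arrays was present for 24 probes of 23 genes: 14 of complex I, Sdhb, both complex III genes, 4 of complex IV and 2 of complex V. The other 12 genes have gaps and are described after them.

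The study measured cultures of mixed glia, prepared from wild-type mice and from IL-1R1-/- mice. IL-1R1 is the receptor through which IL-1β signals. Cells were kept for 10 to 12 days after isolation and then given vehicle or rrIL-1β at 10 ng/ml for 4 hours, which makes 4 groups: wild-type vehicle, wild-type IL-1β, IL-1R1-/- vehicle and IL-1R1-/- IL-1β. The labels state 3 independent replicates per group, with paired treatments, and do not give the strain, the age of the animals or the number of animals per culture. RNA was labelled with 33P for the arrays, so a value is a spot intensity.

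The respiratory chain passes electrons from NADH (complex I) and succinate (complex II) through complex III to oxygen at complex IV, and complex V uses the resulting proton gradient to make ATP. Complex I has a peripheral arm, where NADH is oxidised, and a membrane arm, where protons are pumped. The nuclear genes measured here encode mainly accessory subunits, while the mitochondrial genome encodes core membrane subunits of complexes I, III, IV and V. Glial cells, astrocytes above all, combine this oxidative metabolism with a high rate of glycolysis.

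Nuclear respiratory factor 1 (NRF-1) and GABP (also called NRF-2) are transcription factors known for binding promoters of respiratory chain genes, so the RefSeq promoter windows (GRCm38.p6; 250 bases before to 50 after the start of the gene) were searched for their letters on both strands. A window was found for 31 of the 35 genes. The NRF-1 letters CGCANGCGC occurred in 11 of 31 (35.5%), compared with 14.6% of 4599 genes with a probe on the array and 7.12% of 27025 genes in the table. GABP letters, CCGGAAG, occurred in 6 (19.4%, against 18.8% and 9.93%), and YY1 letters, AANATGGCG, in 4 (12.9%, against 6.24% and 2.76%). The letters TCAAGGTCA, which estrogen-related receptors bind, occurred in 0 of 31 windows, 0.196% of array genes and 0.466% of all genes. A match is a stretch of letters only, and binding was not measured. The stretches below were picked from genes that the expression results name and that have a match. Other genes named below also have a match that is not printed. NRF-1 letters occur in Atp5l, Ndufb10, Ndufa6, Ndufa5 and Ndufs5, and GABP letters in Atp5l, Cox6b1, Cox10 and Atp5e. YY1 letters occur in Cox10, Ndufc1, Ndufa7 and Atp5j2. Further genes named below, among them Ndufb9, Cox7a2l, Uqcrc2, Cox11, Cox19 and Atp5g1, had no match or no window. Capitals mark the NRF-1 letters, except in Sdhb, where they mark the GABP letters. All stretches read 5′ to 3′ on the strand of the gene, and 30 bases are shown where the match lies after the gene's start or within another annotated gene.
Uqcr10 (chr11:4704325-4704354, minus strand): attgggttctaCGCAAGCGCagtggcgcga
Sdhb (chr4:140961265-140961294, plus strand): ggctcggagaaaCCGGAAGcggccttccac
Ndufaf4 (chr4:24897960-24897989, plus strand): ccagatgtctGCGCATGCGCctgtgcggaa
Ndufa11 (chr17:56717692-56717721, plus strand): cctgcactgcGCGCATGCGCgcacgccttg
Ndufa12 (chr10:94198864-94198943, plus strand): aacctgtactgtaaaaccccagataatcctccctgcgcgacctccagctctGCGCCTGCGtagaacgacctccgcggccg
Ndufa8 (chr2:36049339-36049418, minus strand): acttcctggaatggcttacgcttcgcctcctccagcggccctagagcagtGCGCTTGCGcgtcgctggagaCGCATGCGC
Ndufb4 (chr16:37654369-37654448, minus strand): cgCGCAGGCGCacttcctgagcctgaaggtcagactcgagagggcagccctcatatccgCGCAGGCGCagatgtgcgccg
In Ndufaf4 and Ndufa11 the capitals hold overlapping matches on the 2 strands. The Ndufa8 stretch has 2 separate matches and ends at the last base before the start of the gene, and so does that of Ndufb4.

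Some properties of the arrays bear on every value. The labels list 12 arrays, but the column of IL-1R1-/- IL-1β replicate 3 equals that of IL-1R1-/- vehicle replicate 1 up to a constant factor at 6531 of 6584 shared probes, and the column of IL-1R1-/- vehicle replicate 3 equals that of wild-type vehicle replicate 1 at 5959 of 5982. Any other pair of columns shared at most 0.0857% of its ratios. Both columns of IL-1R1-/- replicate 3 were left out, and because it is unknown which column of each pair is the original, main results are also given without wild-type replicate 1 or IL-1R1-/- replicate 1. Median intensity ranged from 4649 to 60399 between arrays, so log2 values were quantile-normalized over the 5713 probes with a value on all 10 arrays. In addition, differences between arrays followed the order of the probes in the file. Counts, medians and estimates of the main comparisons are therefore given a second time with this position trend removed. Nfkbia, a direct NF-κB target that IL-1β induces, was 3.46-fold higher after IL-1β in wild-type glia (log2 change 1.79 ± 0.19 SE, adjusted p = 0.000312) and 0.07 ± 0.24 in IL-1R1-/- glia. With the trend removed these were 1.62 ± 0.16 and -0.03 ± 0.20. All adjusted p-values below are from limma with Benjamini-Hochberg adjustment over all tested probes, and a gene is called where this p is under 0.05.

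In the plot of each gene by array, most of the 23 genes had their highest values on the wild-type vehicle arrays. The median deviation of the 23 genes from their own means was 0.49, 0.21 and 0.11 on the 3 wild-type vehicle arrays. It was 0.18, -0.16 and -0.27 on the wild-type IL-1β arrays, -0.18 and -0.11 on the IL-1R1-/- vehicle arrays, and -0.23 and -0.08 on the IL-1R1-/- IL-1β arrays. Wild-type replicate 1 was the highest of its group under both treatments, and its IL-1β array lay above wild-type vehicle replicate 3. With the position trend removed the wild-type vehicle arrays stood at 0.42, 0.32 and 0.09 and the wild-type IL-1β arrays at 0.21, -0.09 and -0.19. All 5713 probes had medians between -0.03 and 0.01 on every array in both versions. The genes were mostly bright, with 15 of 23 among the brightest 1429 of the 5713 tested probes.

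**Figure D1:**
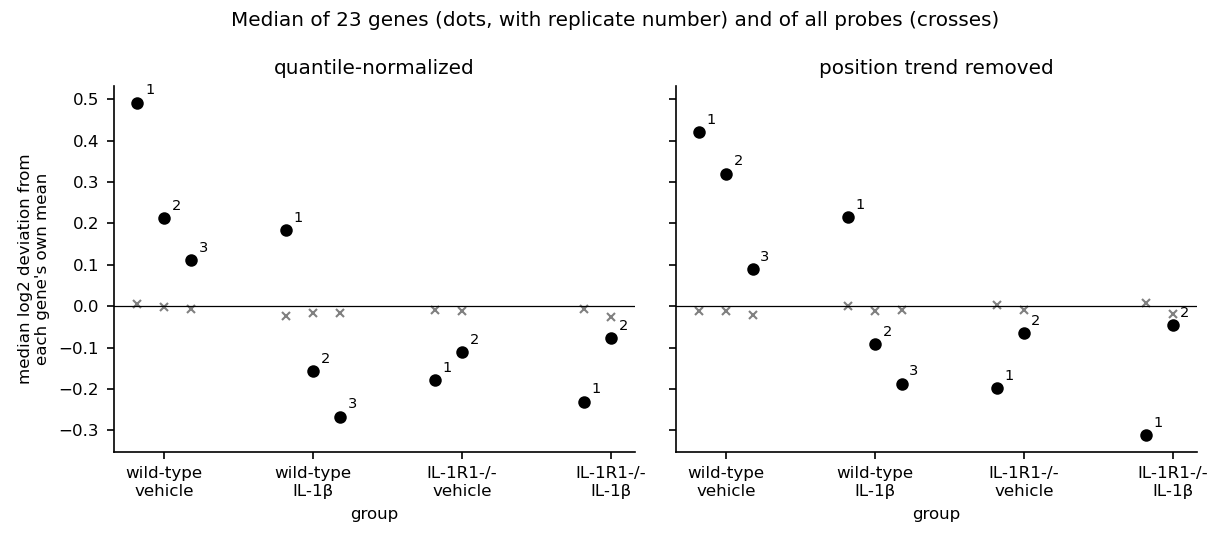
Median log2 deviation of the 23 genes from their own means on each array (dots with the replicate number) and of all 5713 tested probes (crosses), by group, before (left) and after (right) removal of the position trend. The wild-type vehicle arrays lie at 0.49, 0.21 and 0.11 on the left, above the IL-1R1-/- arrays at -0.08 to -0.23, while the crosses stay within 0.03 of 0.

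IL-1β in wild-type glia was the first comparison, and in it 1 of 23 genes was called, Uqcr10, which fell. The background was 353 of 5713 probes, 6.18%. Estimates were negative for 21 of 23 genes, against 55.5% of all probes, with a median log2 change of -0.31 against -0.04. An unadjusted p under 0.05 was found for 7 of 23 (30.4%, against 21.1% of all probes and 27.2% of the brightest 1429). With the position trend removed 0 genes were called (background 0.403%, 23 probes) and 6 had an unadjusted p under 0.05 (26.1%, against 11.2% and 18.3%), 22 of 23 estimates were negative against 49.4% of all probes, and the median was -0.24. The brightest 1429 probes had a median of -0.04 and 56.3% negative estimates, or -0.07 and 63.5% with the trend removed. The 15 genes among them had medians of -0.38 and -0.30, and the 8 dimmer genes of -0.21 and -0.09. The part of brightness in the result was not tested. In bulk RNA, fewer cells of a type and less RNA per cell cannot be told apart.

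The median over the 23 genes was -0.28, -0.41 and -0.24 in wild-type pairs 1, 2 and 3, where a pair is the IL-1β and vehicle array of 1 culture. With the trend removed it was -0.14, -0.33 and -0.33. A lower value in 3 of 3 pairs was seen for 9 of 23 genes (39.1%), against a background of 20.6% of all probes, and for 7 (30.4%) against 15.1% with the trend removed. Ndufa8, Ndufb4, Ndufb9, Uqcr10 and Cox7a2l were on both lists. Leaving out wild-type replicate 1, whose vehicle column has a copy, gave a median of -0.43, and 21 of 25 genes then complete were negative.

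Complex III gave the called gene. Uqcr10 encodes a small subunit of the cytochrome bc1 complex. Its log2 intensity was 15.43, 15.89 and 16.16 on the wild-type vehicle arrays and 15.05, 14.72 and 14.84 on the wild-type IL-1β arrays of the same cultures. Every IL-1β array lay below every vehicle array, at 14.87 ± 0.17 against 15.82 ± 0.37 (SD, n = 3 each). The share of all probes with such a separation was not counted. The log2 change was -0.95 ± 0.20 (SE; 1.94-fold lower; limma adjusted p = 0.0223) and came from pair changes of -0.38, -1.17 and -1.32. The 10 other probes within 10 places of it in the file had a median change of -0.53. With the position trend removed Uqcr10 stood at -0.59 ± 0.14 and was no longer called (adjusted p = 0.146). It also lost its call in limma without wild-type replicate 2 (-0.84, adjusted p = 0.101), without wild-type replicate 3 (-0.82, adjusted p = 0.0553) and in a fit without the culture pairs (adjusted p = 0.197), and kept it without wild-type replicate 1 (-1.21, adjusted p = 0.0261). Uqcrc2, a core subunit of the same complex, had pair changes of -0.08, -0.21 and -0.85, with a log2 change of -0.38 ± 0.19 (limma adjusted p = 0.274), and 0.10, -0.08 and -0.51 with -0.17 ± 0.14 with the trend removed. Its wild-type vehicle values of 15.67, 15.46 and 16.47 overlap the IL-1β values of 15.60, 15.25 and 15.62.

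For complex I all 14 estimates were negative, from -0.55 to -0.01, with 0 called by limma and 4 at an unadjusted p under 0.05. With the trend removed 13 of 14 were negative and 3 had an unadjusted p under 0.05. Subunits of the peripheral arm (3 genes) had a median of -0.31 and those of the membrane arm (9 genes) of -0.35, or -0.24 and -0.30 with the trend removed. In the peripheral arm, Ndufa12 had pair changes of -0.70, -1.02 and 0.07 and an estimate of -0.55 ± 0.21. The trend-removed pair changes were -0.18, -0.78 and 0.02, with an estimate of -0.31 ± 0.16 (limma adjusted p = 0.496). In the quantile-normalized values without wild-type replicate 3, the pair with 0.07, it reached -0.90 and was called by limma (adjusted p = 0.0315). The background of that setting was 343 of 6598 probes. In the membrane arm, Ndufb9 had pair changes of -0.32, -0.88 and -0.33 and an estimate of -0.51 ± 0.18, which was -0.47 ± 0.12 with the trend removed. Its vehicle values of 15.34, 15.52 and 14.10 spread wider than the change, so the lower value shows within cultures and not between the groups as a whole. Ndufa8, also of the membrane arm, had pair changes of -0.40, -0.73 and -0.20 and an estimate of -0.44 ± 0.18, or -0.45 ± 0.13 with the trend removed. These 2 genes moved little when the trend was removed, while Ndufb10 went from -0.15 ± 0.23 to -0.51 ± 0.18.

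The assembly factor Ndufaf4, needed to build complex I and not part of the finished enzyme, had the smallest adjusted p of the complex I genes. Its probe read 14.37, 14.95 and 14.14 on the wild-type vehicle arrays and 14.00, 13.99 and 13.84 on the IL-1β arrays. The groups thus do not overlap, and the share of all probes with such a separation was not counted. The log2 change was -0.55 ± 0.18 (limma adjusted p = 0.0975), from pair changes of -0.38, -0.96 and -0.30. The second, dimmer Ndufaf4 probe had pair changes of 0.48, -0.11 and -0.33 and an estimate of 0.01 ± 0.19. Removing the trend left the first probe at -0.18 ± 0.14 and the second at 0.13 ± 0.14. The 2 probes of this gene therefore disagree. Ndufaf7, a methyltransferase that acts on a complex I subunit during assembly, had an estimate of -0.28 ± 0.18, or -0.09 ± 0.13 with the trend removed.

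Sdhb is the iron-sulfur subunit of succinate dehydrogenase and the 1 gene of complex II. Its log2 intensity was 16.01, 15.89 and 15.31 on wild-type vehicle arrays and 15.82, 15.48 and 14.29 on IL-1β arrays. Each culture was lower after IL-1β, by -0.18, -0.41 and -1.02, while the groups overlap. The estimate of -0.54 ± 0.19 (limma adjusted p = 0.117) became -0.18 ± 0.15 with the trend removed, and the probes within 10 places had a median of -0.42.

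Complex IV genes were mixed. Cox7a2l, a factor that joins complexes III and IV into supercomplexes, had pair changes of -0.42, -0.20 and -0.60 and an estimate of -0.41 ± 0.17 (limma adjusted p = 0.192; -0.33 ± 0.14 with the trend removed). Cox6b1, which lies where the cytochrome c oxidase monomers meet, had pair changes of -0.11, -0.75 and 0.11 and an estimate of -0.25 in both versions. Of the copper factors, Cox19 had 0.23, -0.47 and -0.55, with an estimate of -0.26 ± 0.20 that was -0.0015 with the trend removed. Cox11 was higher in every pair, by 0.28, 0.38 and 0.45. The probes within 10 places of Cox11 had a median of 0.57, and its estimate of 0.37 ± 0.17 turned to -0.09 ± 0.13 with the trend removed.

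Of the ATP synthase genes, Atp5g1 encodes the proton-carrying c subunit of the rotor ring and Atp5l the g subunit of the membrane part. Atp5g1 had pair changes of -0.37, -0.56 and 0.17, which became -0.15, -0.38 and -0.35 with the trend removed. Atp5l had 0.35, -0.20 and 0.11, with an estimate of 0.09 ± 0.19 that turned to -0.17 ± 0.14. Neither was called by limma in either version, with adjusted p-values of 0.481 and 0.83, or 0.376 and 0.734 with the trend removed.

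**Figure D2:**
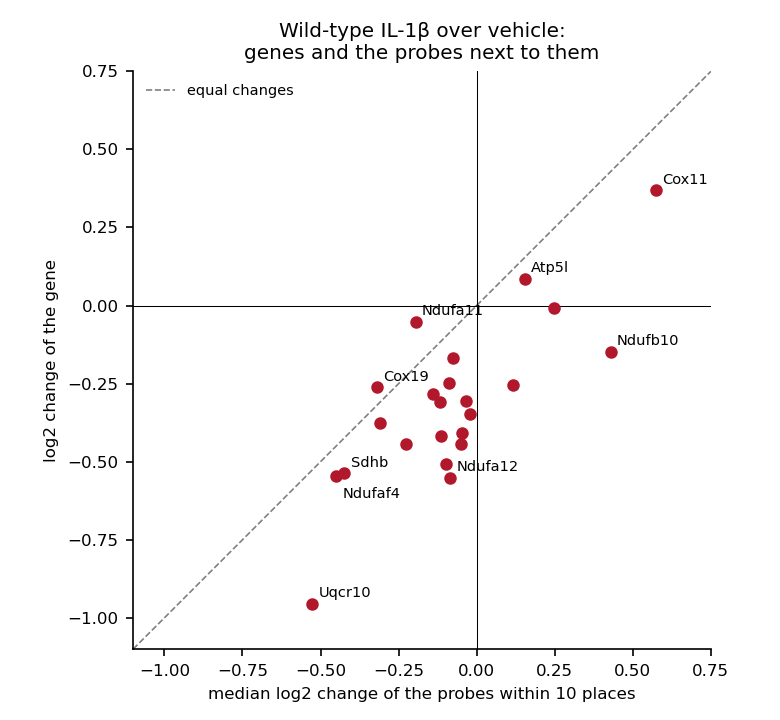
Wild-type log2 change of each of the 23 genes (vertical) against the median log2 change of the other probes within 10 places in the file (horizontal); on the dashed line both are equal. Of the 23 genes 21 lie below the line, with Ndufa11 and Cox19 above it, and Uqcr10 pairs -0.95 with -0.53. The median distance from the line over the 23 genes is -0.22. The share of all probes below their own neighbours was not counted.

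Probes next to each other shared part of their change, and the plot of genes against neighbouring probes shows how much. The neighbours' own median, taken over the 23 genes, was -0.09. The difference between a gene and its neighbours had a median of -0.22 and was largest for Ndufb10 (-0.58), Ndufa12 (-0.47) and Uqcr10 (-0.43). For Uqcrc2 (-0.07), Atp5l (-0.07), Ndufaf4 (-0.10) and Sdhb (-0.11) it was small.

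In IL-1R1-/- glia, IL-1β gave 0 called genes of 23, and 0 of 5713 probes were called (0%, in both versions). By limma 2 genes had an unadjusted p under 0.05 (8.70%, against 7.60% of all probes), and 1 with the trend removed (4.35%, against 6.28%), which is near or under the share of all probes. Estimates were negative for 10 of 23 genes, with a median of 0.01, or for 14 with a median of -0.07 with the trend removed. The medians of the 2 pairs were -0.01 and 0.04, or -0.06 and 0.01 with the trend removed. A lower value in both pairs was seen for 7 of 23 genes (30.4%), against a background of 31.3%, and for 8 (34.8%) against 29.4% with the trend removed, which is near the background both times. Without IL-1R1-/- replicate 1 the median was 0.04.

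Single genes in the receptor-deficient pairs went both ways. Ndufb9 had -0.48 and -0.57 (estimate -0.52 ± 0.22), close to its wild-type estimate, but the probes around it had a median of -0.34 and the estimate was -0.19 ± 0.15 with the trend removed. Atp5l had -0.22 and -0.84 (-0.53 ± 0.23, limma adjusted p = 0.624), and -0.55 ± 0.17 with the trend removed. It was called by limma where arrays were only median-centred (-0.95, adjusted p = 0.0244) or not scaled at all (-0.92, adjusted p = 0.0315). In these settings the background was not 0, with 177 and 153 of 5713 probes called. Ndufb10 was higher in both pairs, by 0.28 and 0.82, and Ndufaf4 by 0.34 and 0.39, and neither was called. Removing the trend left 0.14 and 0.17 for Ndufb10 and 0.17 and 0.20 for Ndufaf4. The second Ndufaf4 probe had -0.24 and -0.08, or 0.15 and 0.16 with the trend removed. Ndufc1, a small membrane arm subunit, had -0.54 and -0.23, and Ndufa12 had 0.38 and 0.25. Their estimates of -0.38 and 0.31 were -0.07 and 0.10 with the trend removed.

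The test of the difference between the responses, wild-type minus IL-1R1-/-, called 0 of 23 genes in limma (background 0.158%, 9 probes, in both versions), and 3 had an unadjusted p under 0.05 (13.0%, against 14.1% of all probes), 1 with the trend removed (4.35%, against 8.07%), both under the share of all probes. The median difference was -0.34, with 16 of 23 negative, against 0.01 over all probes, and -0.20, with 18 of 23 negative, with the trend removed. The largest differences were those of Uqcr10 (-1.01 ± 0.32, limma adjusted p = 0.195), Ndufaf4 (-0.91 ± 0.29, limma adjusted p = 0.208) and Ndufa12 (-0.87 ± 0.33, limma adjusted p = 0.269). With the trend removed they were -0.46, -0.36 and -0.41. In the other direction Atp5l had 0.62 ± 0.30, Ndufa6 0.29 ± 0.27 and Cox11 0.16 ± 0.27, which became 0.38, 0.01 and -0.05. Under median centring the median difference was -0.10 and Atp5l was called by limma (1.04, adjusted p = 0.0486), in a setting where 264 of 5713 probes were called. A response in wild-type glia that differs from that in IL-1R1-/- glia was thus not shown by this test for any of the 23 genes under quantile normalization.

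**Figure D3:**
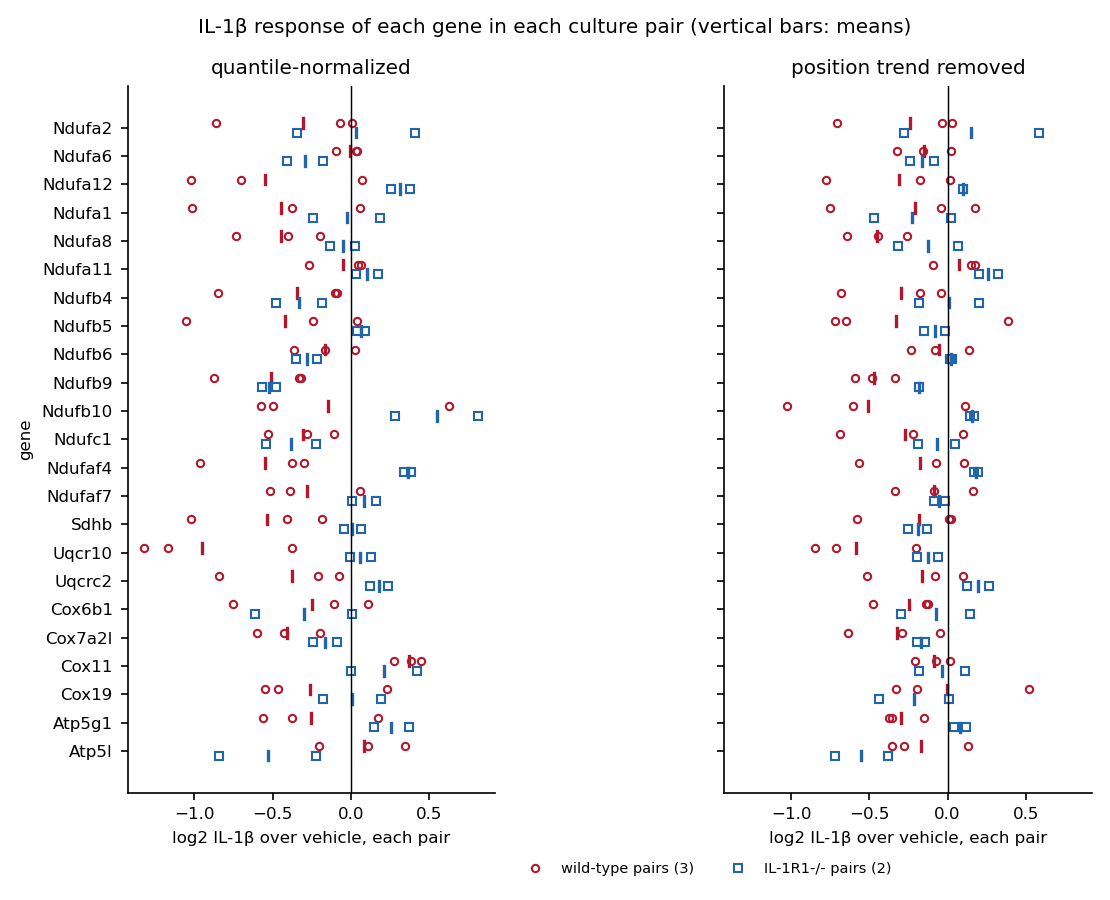
Log2 change (IL-1β over vehicle) of each of the 23 genes in each wild-type pair (red circles, n = 3) and each IL-1R1-/- pair (blue squares, n = 2), with the mean as a vertical bar, before (left) and after (right) removal of the position trend. Most red bars lie left of 0, with a median of -0.31 on the left and -0.24 on the right, and blue bars lie on both sides.

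In vehicle-treated glia, IL-1R1-/- values were lower than wild-type ones for 21 of 23 genes, against 53.5% of all probes, with a median of -0.40 against -0.03. None of the 23 was called by limma (background 0.0175%, 1 probe), and 4 had an unadjusted p under 0.05 (17.4%, against 8.56% of all probes and 21.8% of the brightest 1429). After trend removal 0 were called (background 0%), 2 had an unadjusted p under 0.05 (8.70%, against 7.74% and 19.4%), 20 of 23 were negative and the median was -0.38. Both IL-1R1-/- vehicle arrays lay below all 3 wild-type vehicle arrays for 4 of 23 genes (17.4%: Ndufb5, Ndufaf4, Sdhb and Cox7a2l), against 13.1% of all probes, and for 5 (21.7%) against 10.9% with the trend removed. This comparison and the wild-type response share the 3 wild-type vehicle arrays, so high values there move both.

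Sdhb had the lowest estimate. Its IL-1R1-/- vehicle values were 14.62 and 14.87, below all wild-type vehicle values (15.31 to 16.01), which gave -0.98 ± 0.35 (limma adjusted p = 0.386; -0.58 ± 0.29 with the trend removed). Uqcr10 had IL-1R1-/- vehicle values of 14.73 and 15.43, the second at the level of the lowest wild-type one, and an estimate of -0.74 ± 0.31 (limma adjusted p = 0.512). That estimate was -0.43 ± 0.23 with the trend removed and -0.37 without IL-1R1-/- replicate 1. Ndufaf4 read 13.75 and 14.06 against 14.14 to 14.95 in wild-type glia (-0.58 ± 0.26, or -0.26 ± 0.23 with the trend removed). Ndufb5, a membrane arm subunit, read 15.00 and 15.33 against 15.47 to 16.34, and Cox7a2l 14.86 and 14.72 against 15.07 to 15.70. For Sdhb, Ndufb5 and Cox7a2l the vehicle arrays of the genotypes do not overlap in either version. Those of Ndufaf4 overlap once the trend is removed, and those of Ndufa8 and Ndufb9 then do not.

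Ndufa11, a membrane arm subunit, had -0.92 ± 0.41 (-0.86 ± 0.37 with the trend removed), but its wild-type vehicle values were 14.82, 15.11 and 13.52, the last between the IL-1R1-/- values of 13.44 and 13.69. On the positive side Cox11 had 0.26 ± 0.23 and Atp5l 0.19 ± 0.24, and with the trend removed these were -0.03 and 0.02. The median over the genes was -0.27 without wild-type replicate 1 and -0.38 without IL-1R1-/- replicate 1. With all 12 deposited columns only 11 genes were complete and the median was -0.04. Where arrays were not scaled, the median of all probes was 1.80 and that of the 23 genes 1.45, a difference of -0.35, and 0 of 23 genes were negative there. A fit with a block on the replicate number that the genotypes share gave 3 calls by limma, Sdhb (-1.32, adjusted p = 0.0352), Ndufb9 (-1.12, adjusted p = 0.0349) and Ndufa11 (-1.37, adjusted p = 0.0158). The background of that fit was 86 of 5713 probes. Nothing in the labels says that a number is shared between genotypes by litter or day.

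Between the genotypes after IL-1β, limma called 0 of 23 genes (background 0.07%, 4 probes), and 1 had an unadjusted p under 0.05 (4.35%, against 4.97% of all probes). Estimates were negative for 12 of 23 with a median of -0.0027. In the version without the trend 0 were called (background 0.105%, 6 probes), 0 had an unadjusted p under 0.05, 14 were negative and the median was -0.18. Ndufa6, a peripheral arm subunit, had -0.76 ± 0.29, Ndufa11 -0.76 ± 0.41 and Ndufb9 -0.74 ± 0.37, or -0.58, -0.67 and -0.59 with the trend removed. In the other direction Ndufb10 had 0.40 ± 0.32, Ndufaf7 0.35 ± 0.24 and Ndufaf4 0.33 ± 0.26, or 0.28, 0.16 and 0.10. The second Ndufaf4 probe went the other way. Its mean was 13.66 on the IL-1R1-/- and 14.01 on the wild-type IL-1β arrays, or 13.86 and 14.04 with the trend removed. Ndufa6 read 15.16, 14.90 and 14.13 on the wild-type IL-1β arrays and 14.03 and 13.92 on the IL-1R1-/- ones. With the trend removed the groups stood at 14.65 ± 0.52 and 14.07 ± 0.17 (SD). Such a separation was met by 13.1% of all probes in vehicle, and its share after IL-1β was not counted.

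**Figure D4:**
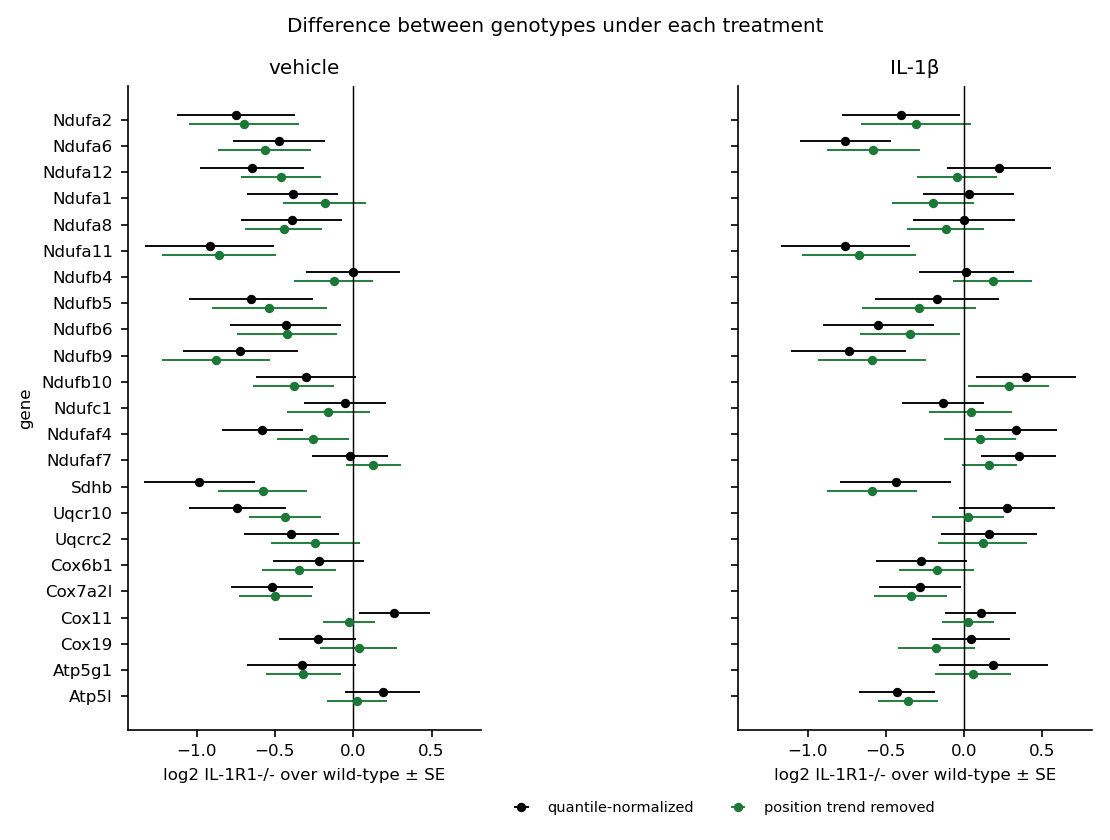
Log2 difference between IL-1R1-/- and wild-type glia for each of the 23 genes, with its SE, in vehicle (left) and after IL-1β (right), quantile-normalized (black) and with the position trend removed (green). In vehicle 21 of 23 black points lie below 0, with Sdhb lowest at -0.98, and after IL-1β 12 of 23 do.

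Among the 12 genes with gaps, 7 belong to complex I (Ndufa3, Ndufa5, Ndufa7, Ndufb3, Ndufb8, Ndufc2 and Ndufs5), 3 to complex IV (Cox10, Cox4i2 and Cox6b2) and 2 to complex V (Atp5e and Atp5j2). Their values rest on 1 or 2 wild-type pairs. In a fit that kept probes with gaps, 31 of 35 genes had a negative wild-type response, and limma called 5: Uqcr10 and 4 of these 12 (background 11.4%, 992 probes). Ndufb8, a membrane arm subunit, had -1.69 (limma adjusted p = 0.021) and Ndufa5, of the peripheral arm, -1.27 (limma adjusted p = 0.041), each measured in wild-type pair 3 alone. These 2 p-values take the spread from the IL-1R1-/- pairs and from other probes and assume that the lone pair varies alike, so 2 of the 5 calls rest on 1 wild-type pair. Cox10, which makes the haem precursor of complex IV, had 0.58 and 1.37 in pairs 2 and 3 (0.98, limma adjusted p = 0.0371). Cox4i2, the isoform of subunit 4 known from lung and low oxygen, had 0.57 and 1.22 in pairs 1 and 2 (0.90, limma adjusted p = 0.0377). The probes around Cox10 and Cox4i2 had medians of 0.54 and 0.69, and those around Ndufb8 and Ndufa5 had -0.14 and -0.09. The 11.4% background pools complete and gapped probes, beside 6.18% in the main fit of complete probes only. The share among gapped probes alone was not counted, so the 12 genes have no background of their own. Once the trend was removed as well, 0 of 35 genes were called by limma (background 1.4%, 122 probes), Ndufb8 standing at -1.09 (adjusted p = 0.0722), Ndufa5 at -0.68, Cox10 at 0.48 and Cox4i2 at 0.18. Of the other 8, Ndufs5 (-0.77), Atp5e (-0.66), Ndufb3 (-0.56), Cox6b2 (-0.52), Ndufa3 (-0.50), Ndufc2 (-0.36) and Ndufa7 (-0.13) had 2 wild-type pairs each, and Atp5j2 (-0.99) had 1, and with the trend removed they ranged from -0.62 to -0.02.

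Other mitochondrial genes were read from lists of pathways that feed, build or regulate the chain, with the same 6.18% background in the wild-type response. Of 9 tested genes of the TCA cycle and pyruvate dehydrogenase 0 were called by limma, with a median of -0.10 and 6 negative. Pdk2 (0.54), Pdk3 (0.35) and Pdk4 (-0.10) in this list are pyruvate dehydrogenase kinases, so each median of the list mixes them with the enzymes. The enzyme genes were Ogdh (-0.51), Dlat (-0.48), Mdh2 (-0.34), Cs (-0.26), Idh3a (-0.09) and Pdha1 (0.14). With the trend removed these enzyme genes stood at -0.21, -0.13, -0.45, 0.05, -0.03 and -0.57. Of 7 electron carriers and related genes 1 was called, Etfb, the beta subunit of the flavoprotein that brings electrons from fatty acid oxidation, at -0.73 ± 0.18 (limma adjusted p = 0.0312). Of 4 regulators of mitochondrial biogenesis 1 was called, Gabpa, the DNA-binding subunit of GABP, at 0.95 ± 0.25 (limma adjusted p = 0.0415). Of 24 genes of the mitochondrial ribosome 3 were called, Mrps18b (0.81) and Mrps28 (0.74) higher and Mrpl42 (-0.65) lower, with a median of -0.08. None of 6 import genes and none of 5 assembly factors outside the symbol rule was called. The lists of glycolysis, of nucleotide and phosphate exchange and of mitochondrial antioxidants had 1 tested gene each. These were Pfkfb3 (0.60), Ucp3 (-0.21) and Prdx3 (-0.26) in that order, and none was called. Without the trend none of these lists held a called gene, Etfb standing at -0.43 and Gabpa at 0.42. The median was then 0.01 for electron carriers, -0.03 for TCA cycle genes, -0.01 for ribosome genes, 0.04 for regulators of biogenesis, -0.09 for the assembly factors and -0.19 for import genes (4 of 6 negative), beside -0.24 for the respiratory genes. Differences between these lists were not tested.

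Markers of cell types were read beside these values. Of 9 astrocyte markers listed 3 were tested, and limma called 2 lower in the wild-type response, Glul (-0.84, adjusted p = 0.0291; -0.47, adjusted p = 0.239 with the trend removed) and Id4 (-1.60, adjusted p = 0.0008), and Id4 also with the trend removed (-1.28, adjusted p = 0.00158). The log2 of the summed astrocyte marker intensity was 17.16 to 17.36 on the wild-type vehicle arrays, 16.15 to 16.42 on wild-type IL-1β arrays, 16.42 to 16.84 on IL-1R1-/- vehicle arrays and 16.08 to 16.93 on IL-1R1-/- IL-1β arrays. This sum is carried by the brighter probes. The remaining astrocyte marker, Slc1a2, had estimates of the other sign, 0.10 in the wild-type response and 0.78 in IL-1R1-/- against wild-type vehicle glia (0.14 and 0.65 with the trend removed), where Glul and Id4 had -0.89 and -0.78 (-0.58 and -0.51). The part of the markers in the results for the respiratory genes was not tested. For microglia and macrophages (4 markers tested, 0 called) the ranges were 17.80 to 17.96, 17.54 to 18.02, 18.17 to 18.52 and 17.90 to 18.04 in the same order of groups. None of 3 oligodendrocyte markers, 2 neuron markers and 1 fibroblast marker was called, and of 4 endothelial and mural markers Emcn was, at 0.84 (limma adjusted p = 0.0187), and no longer with the trend removed (0.30, adjusted p = 0.444).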

How the data were processed

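The deposited values are array intensities on a linear scale. Per the labels' protocols, RNA was treated with DNase and copied into cDNA carrying a radioactive nucleotide. For the software, background correction and filter that made the deposited intensities nothing is given in the sources used here, so fold changes may be understated. Gene names come from the platform annotation.

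Intensities of probes with a value on all 10 arrays (5713 of 8734) were log2-transformed and quantile-normalized with limma 3.58.1 (R 4.3.3), and 1 probe per gene (highest mean) was kept. Responses were fitted with lmFit and eBayes on the change within each culture. Genotype differences used duplicateCorrelation (statmod 1.5.0; correlation 0.388, or 0.452 with the trend removed). P-values are two-sided and adjusted by Benjamini and Hochberg over 5713 probes, threshold 0.05. Errors are SE of the fit or SD between arrays.

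The pairing comes from the design text. Within a culture, the 2 arrays' deviations from the group means correlated at 0.468, 0.582 and 0.261 in wild-type cultures and at 0.562 in the IL-1R1-/- ones. With 2 arrays per group the deviations mirror each other, so the IL-1R1-/- value is the same for both cultures by construction. The 2 arrays of a culture also shared their missing probes, 370 to 1342 per culture. The number of arrays limits the precision, and p-values measure the spread between these cultures.

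The position trend was estimated on plates of 16 by 24 wells, inferred from probe order, with a step after plate 11 of 23, and each array's deviation was smoothed (loess, span 0.2) and subtracted. The fits were tested on simulated data with known changes. Alternatives covered scaling, probes with gaps, dim probes, all 12 columns, the pair and replicate number blocks and each culture left out. The members and lists were chosen with earlier results of these data known. Named genes are those called in any comparison, the 4 with the smallest p of each complex in the wild-type response, the 3 with the smallest p in each direction of the other comparisons, genes with disagreeing probes and called genes of other lists. Other genes, such as Ndufb5 and Ndufb4, were named to account for the members or chosen after their values were seen.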

Additional observations from a re-analysis of the deposited data

Results flagged for a closer look

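Responses of opposite sign in the genotypes were seen for 2 genes that had a negative change in all 3 wild-type pairs and a positive one in both IL-1R1-/- pairs. Ndufaf4 differed by -0.91 on the log2 scale (wild-type minus IL-1R1-/-; limma adjusted p = 0.208), and by -0.36 (adjusted p = 0.756) with the position trend removed. Uqcrc2 differed by -0.56 (limma adjusted p = 0.429), and by -0.36 (adjusted p = 0.747) with the trend removed. The test of the difference missed the threshold for both. The same pattern of signs was found at 438 of 5713 probes (7.67%), which is near the 2 of 23 genes. The second Ndufaf4 probe differed by 0.17, and by -0.03 with the trend removed. In the version without the trend the pattern was found at 223 probes (3.90%) and for 1 of the 23 genes, Atp5g1, and neither Ndufaf4 nor Uqcrc2 kept it.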

How the results depend on the processing

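The count of 1 called gene in the wild-type response became 0 with the position trend removed and without the replicate block. It was also 0 with gaps kept and the trend removed together, a setting chosen after seeing the data. With all 12 columns 0 were called too, but only 11 genes were complete there and Uqcr10 was not among them. Every median given below for all 12 columns rests on these 11 genes. The count of called genes became 5 with gaps kept. When 1 culture was left out it was 0 to 2, beside 54 to 343 called probes over the whole array. The median wild-type response was -0.43 to -0.29 when 1 culture was left out. In IL-1R1-/- glia 1 gene was called without scaling and with median centring, beside 153 and 177 of 5713 probes. The median there was -0.14 and -0.17. It was -0.070 with the trend removed, -0.051 with all 12 columns and -0.085 with gaps kept and the trend removed. The median difference of the responses was -0.11 without scaling and -0.10 with median centring (1 gene called, beside 264 of 5713 probes). It was -0.20 with the trend removed, -0.23 with gaps kept and the trend removed, -0.23 with all 12 columns and -0.23 without the copied columns and the arrays they copy. With 1 culture left out it was -0.38 to -0.23. In vehicle the median was 1.45 without scaling, -0.035 with all 12 columns and -0.57 to -0.27 with 1 culture left out, and after IL-1β it was 1.67 without scaling and -0.25 to 0.12 with 1 culture left out. The replicate block on the number shared by the genotypes gave 3 calls in vehicle (background 86 of 5713 probes) and 1 (Ndufa11, -1.21) after IL-1β (background 15 probes). A fit without a replicate block changed no other call. The causes were not tested.

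Signs turned in these cases. In the wild-type response Cox11 was -0.088 with the trend removed and -0.12 with gaps kept as well, and Cox19 was 0.0006 in the latter. Atp5l was -0.17 with the trend removed, -0.22 with gaps kept as well, and -0.048 without the copied columns and the arrays they copy. With 1 culture left out Atp5l was -0.044 to 0.30 and Cox6b1 -0.49 to 0.063, the turned signs being those without wild-type replicate 1 and replicate 2. In the difference of responses Cox11 was -0.053 with the trend removed, -0.092 with gaps kept as well, -0.0012 without the copied columns and the arrays they copy and -0.050 to 0.36 with 1 culture left out (negative without IL-1R1-/- replicate 1), and Ndufa6 was -0.0094 with gaps kept and the trend removed. Without scaling, the genotype differences of all probes moved together (median 1.80 in vehicle and 1.78 after IL-1β) and 0 of 23 genes stayed negative in either treatment. Named among them are Sdhb (0.92), Uqcr10 (1.29) and Ndufaf4 (1.28) in vehicle and Ndufa6 (0.99), Ndufb9 (1.00) and Ndufa11 (1.03) after IL-1β. In vehicle Cox11 was -0.028 with the trend removed and -0.032 with gaps kept as well. After IL-1β Ndufaf4 was -0.0089 as the mean of its probes. Without the copied columns and the arrays they copy, the correlation within cultures could not be estimated, so that setting gave no genotype differences. Over all combinations of a named gene, a comparison and an alternative, 509 kept the direction and the side of the threshold. In 22 the sign turned, 6 gained a call and 5 lost it.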
